A study of Mus musculus with 2 samples.

Results

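The transcripts described here are splice isoforms annotated as targets of nonsense-mediated decay (NMD), set against the coding isoforms of the same genes. Members were the transcripts of type nonsense_mediated_decay in the GENCODE M21 annotation of mouse whose gene also had a protein_coding transcript in the table. Genes whose symbols start with Srsf, Hnrnp or Clk were left out. In all, 5033 of the 121429 transcripts with an exon value met this rule, and they belonged to 3256 genes. A further 34 NMD transcripts were left out by the symbol, and 2025 of the 7186 NMD transcripts of the annotation were not in the table.

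The RNA came from wild-type mouse embryonic stem cells of the line DTCM23/49 XY, grown without feeder cells. The cells received 4-thiouridine (4sU), a uridine analogue built into RNA as it is made, at 200 µM for 10 min. RNA that carried 4sU was then biotinylated and pulled down, and the labeled RNA and the RNA left behind were sequenced as 1 library each, both of biological replicate 1. The second library is named total RNA in its title, source name and RNA label and preexisting RNA only in its description, and was used as unlabeled RNA.

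Values are exon abundances of each transcript in the deposited unit, which is called TPM but adds up to 10 times what TPM would in either library. They give the make-up of each RNA pool and not the amount of RNA per cell. With 1 library per pool no difference below has a replicate check, and no test was made. Read depth is unknown, so no counting error can be given. Reads from exons that isoforms share were divided among them by RSEM, so that the value of an NMD isoform also rests on the model that divides them. All 10 pluripotency markers examined had values in both libraries, with sums of 13776 labeled and 21177 unlabeled, and 8 fibroblast markers, which feeder cells would carry, summed to 10.3 and 23.9.

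NMD is the surveillance pathway that removes messenger RNA on which translation ends too early. A spliced RNA keeps a protein complex, the exon junction complex, just upstream of each exon-exon junction, and translating ribosomes strip these complexes off. A complex that is still in place downstream of the stop codon marks the RNA, the helicase UPF1 is phosphorylated by SMG1, and SMG5 and SMG6 help to bring about decay. A stop codon more than about 50 bases upstream of the last junction is the usual sign by which annotators call a transcript an NMD target. Many genes for RNA-binding proteins make such isoforms by including a poison exon, an exon that carries a stop codon in frame. In a pulse of 4sU, RNA that is replaced faster has a larger ratio of labeled to unlabeled RNA, and the comparison below asks whether this ratio differs between the NMD and the coding isoforms of a gene.

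The stop codons annotated for the 18 named NMD isoforms that results below turn on are shown first, since the place of the stop before the last junction is what the NMD type is called on. Each line gives 30 bases of the spliced transcript from GENCODE M21 on GRCm38, 5′ to 3′, with the stop codon in capitals, and the coordinates are those of the stop codon. The first 6 are the isoforms with the highest labeled to unlabeled ratio relative to the coding isoform of their gene, among pairs with a mean exon value of at least 100 in both.
Cul5-204 (chr9:53658152-53658154, minus strand): ccatggaaatggagtTAGtgagccaccatg
Ppp4r3b-206 (chr11:29218549-29218551, plus strand): cctcgcctgggctccTAGaatccttgctgg
Calm3-202 (chr7:16916948-16916950, minus strand): atgatgactgcgaagTGAaggcccgggcag
Pml-209 (chr9:58233236-58233238, minus strand): gcagagatgcagctgTAGccagcccagagg
Cpsf6-204 (chr10:117355938-117355940, minus strand): gaataccgtcatcgtTAGaagtaaatatac
Rbm39-222 (chr2:156178881-156178883, minus strand): gtgaactgtcaatcaTAAgggcgagatgtg

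The next 6 are those with the lowest ratio relative to the coding isoform under the same limit.
Serf2-205 (chr2:121457073-121457075, plus strand): tctgggcggaagctgTGAgggttgccggaa
Fubp3-206 (chr2:31612124-31612126, plus strand): gcacctcaaagcagaTAAagaaagggaatg
Psmd11-211 (chr11:80434547-80434549, plus strand): ttcaaacagaaaagaTAGaaataacatcag
Atrx-205 (chrX:105825786-105825788, minus strand): aaagtgtactggaatTAAttggtcaaaata
Ccnl1-207 (chr3:65955246-65955248, minus strand): ttaccaaagcctgggTGAtgtggagtggta
Nmd3-204 (chr3:69729402-69729404, plus strand): gacttaaagttaaatTGAcaattcagaaag

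The last 6 are the most abundant NMD isoforms.
Ppia-201 (chr11:6418241-6418243, plus strand): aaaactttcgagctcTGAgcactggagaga
H2afz-204 (chr3:137866016-137866018, plus strand): caccgcagaggtactTGAgttggcaggaaa
Rpl10a-203 (chr17:28329061-28329063, plus strand): aggttggcaccgctcTAAccccacccagcc
Nop56-211 (chr2:130278428-130278430, plus strand): ggaggagataggtgcTGAgagaacttgaca
Serbp1-209 (chr6:67272884-67272886, plus strand): tggatcaatcaaatgTGActgaggaaacac
Rpl6-208 (chr5:121208496-121208498, plus strand): aaatccccaaacaccTGActgacgcttact

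These stops lay from 74 bases (Cpsf6-204) to 806 bases (Ccnl1-207) upstream of the last junction of their transcript. In Calm3-202, Pml-209, Rbm39-222, Fubp3-206, Ccnl1-207 and Nop56-211 the stop was inside an exon that the coding transcript used for comparison lacked. In Rbm39-222 this was exon 3 of 5 (chr2:156178880-156178952, 73 bases), in Ccnl1-207 exon 2 of 11 (chr3:65955204-65955276, 73 bases) and in Fubp3-206 exon 6 of 9 (chr2:31612103-31612235, 133 bases). The lengths of these exons are not multiples of 3, so that including one shifts the reading frame. The added exons of Calm3-202 (exon 2 of 3, chr7:16916698-16916976), Pml-209 (exon 2 of 4, chr9:58233153-58233247) and Nop56-211 (exon 5 of 6, chr2:130278413-130278531) held no base outside the exons of other coding transcripts of their genes.

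Over all members the annotated stops were early. An annotated stop was present in 5032 of them, at a median of 336 bases before the last junction (quartiles 159 and 741). It was more than 50 bases before that junction in 5002 members (99.4%), against 32 of 2890 (1.11%) of the coding transcripts they were compared with. This contrast follows from how the NMD type is called. A median of 3 junctions followed the stop. The stop codon was TGA in 2920 members (58.0%), TAA in 1141 (22.7%) and TAG in 971 (19.3%).

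The NMD isoforms reached their early stop in several ways. Relative to the top coding transcript of the gene, which is the protein_coding transcript with the highest mean exon value of the 2 libraries, 1256 members added an exon and 273 both added and skipped one. A further 1260 skipped an exon, 1450 used other splice sites, 193 ran through an intron, and 601 differed at their ends or in another way. In 972 members (19.3%) the stop was in an added exon, and in 222, Cpsf6-204 among them, it was the stop of the top coding transcript itself. No base outside the coding exons of the gene was found in 2058 members (40.9%), so that these differ from coding isoforms by the junctions between shared exons, by their ends or by both.

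Most members were present at modest levels. Of the 5033, 464 had an exon value of 0 in both libraries, 107 only in the labeled and 301 only in the unlabeled library, and 4161 were above 0 in both. The median over all members was 12.6 labeled and 13.7 unlabeled. A pair, meaning a member and the top coding transcript of its gene, entered the comparison when all 4 values were above 0 and both transcripts had a mean exon value above 10. This left 2756 members (54.8%) of 1763 genes. In these pairs the median member had 36.4 labeled and 49.9 unlabeled, and the median top coding transcript 54.5 and 76.2. The member's mean was at the median 76.8% of its partner's (quartiles 52.1% and 98.5%) and was the higher of the pair in 643 (23.3%).

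The labeled to unlabeled ratio of the NMD isoforms was close to that of the coding isoform of their gene. The log2 ratio of the exon values had a median of -0.51 in the members (quartiles -1.09 and 0.20) and -0.55 in their top coding transcripts (quartiles -1.12 and 0.12). Labeled exceeded unlabeled in 862 members (31.3%) and in the partner of 794 (28.8%). The difference within pairs, member minus top coding on the log2 scale, had a median of 0.0066 with quartiles of -0.28 and 0.31, and it was above 0 in 1413 of 2756 (51.3%). Its median absolute size was 0.30. The sign of the median depended on the partner: it was -0.063 when the coding transcript highest in labeled RNA was used and 0.047 when the one highest in unlabeled RNA was used. A member is counted below as above or below its partner by a set amount only where the difference reaches 2-fold, which is 1 on the log2 scale.

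A ratio at least 2-fold above that of the top coding transcript was found in 175 members (6.35%), and at least 2-fold below it in 156 (5.66%). Over all 28395 annotated transcripts set against the top coding transcript of their gene in the same way, members included, these shares were 13.7% above and 5.19% below. The members' share above was thus less than that background, and their share below was near it.

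Other isoform types of the same genes set the scale. Coding transcripts other than the top one had a median difference of 0.072 (quartiles -0.22 and 0.35, n = 4277), with 7.20% at least 2-fold above and 4.68% at least 2-fold below. Retained-intron transcripts, which keep an intron and often stay in the nucleus, had a median of 0.34 (quartiles -0.14 and 1.12, n = 3311), with 903 (27.3%) at least 2-fold above. Of the members, the difference was above 0 in 51.3%, against 57.6% of the other coding and 67.6% of the retained-intron transcripts. Set against the other coding transcripts of its own gene rather than the top one, the median member differed by -0.040 on the log2 scale, and by 0.047 among members with at least 100 bases outside coding exons, a limit set after the values were seen. The quartiles of the members and of the other coding transcripts thus overlapped over nearly their whole width, and the distance between their medians was small beside it.

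**Figure D1:**
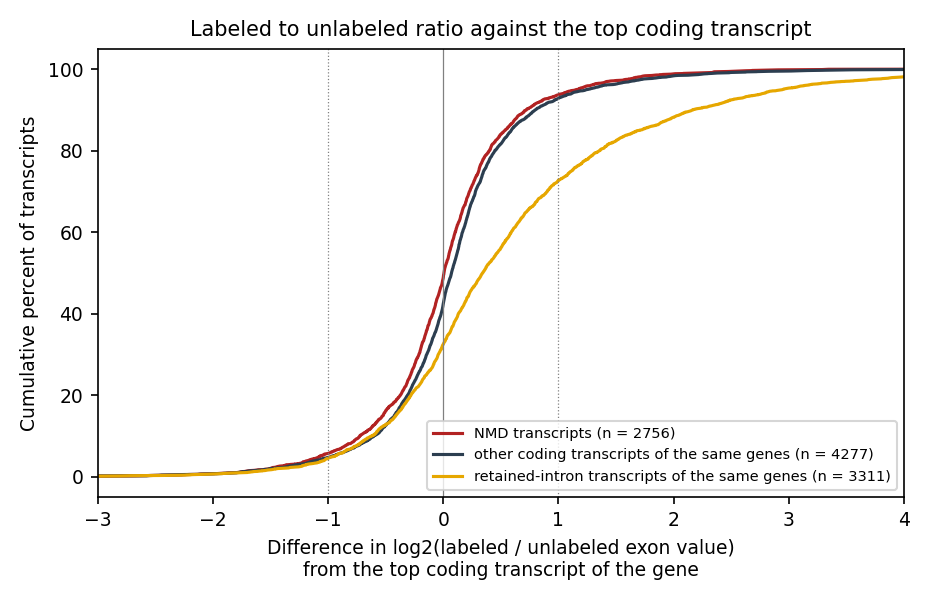
Cumulative percent of transcripts (y axis) by the difference in log2(labeled / unlabeled exon value) from the top coding transcript of the gene (x axis), for 2756 NMD transcripts and the other coding and retained-intron transcripts of the same genes. The NMD and other coding curves run close together through medians of 0.0066 and 0.072, while the retained-intron curve is to the right with a median of 0.34, and the dotted lines mark a 2-fold difference.

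The NMD isoforms of Srsf, Hnrnp and Clk genes, whose products are splicing factors and the kinases that phosphorylate them, were set aside by the rule. They gave 34 pairs from 19 genes with a median difference of 0.16, and 27 of the 34 were above 0. Their difference from the other members has no test.

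Gene and isoform moved together. Taking 1 member per gene, the log2 ratio of the NMD isoform and that of its top coding transcript correlated across 1763 genes with Pearson's r = 0.805 and Spearman's rho = 0.809. The genes share the same 2 libraries and the isoforms of a gene share exons, so this is a description and not evidence from independent points. In 604 genes with more than 1 member, the range of the difference among members had a median of 0.43. Members of 1 gene were on both sides of the coding transcript in 269 of these genes, all above it in 175 and all below it in 160.

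**Figure D2:**
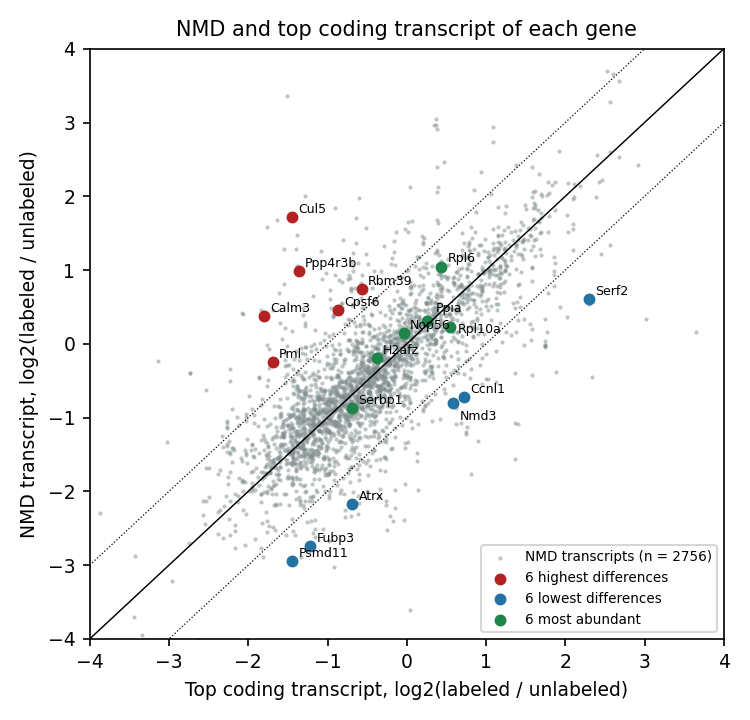
Log2(labeled / unlabeled exon value) of each NMD transcript (y axis) against that of the top coding transcript of its gene (x axis); the solid line marks equality and the dotted lines a 2-fold difference. Of 2756 pairs 2753 lie within the axes, most of them between the dotted lines, and the named isoforms with the highest and lowest differences lie outside these lines, while the 6 most abundant lie inside.

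The spread of the difference narrowed with abundance, while its median stayed near 0. In 1019 members with a mean exon value of 10 to 30, 9.91% were at least 2-fold above and 8.44% at least 2-fold below. In 203 members above 300 both shares were 1.97%, and the median difference was 4.9e-05. The other coding transcripts of the same genes kept medians of 0.13, 0.025, 0.089 and 0.071 over the 4 bins of level, and the retained-intron transcripts 0.57, 0.37, 0.13 and 0.073. The contrast between members and retained-intron transcripts was thus widest at low levels.

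The 6 NMD isoforms highest above their coding partner came from genes of several functions. Cul5 encodes a cullin, the scaffold of a ubiquitin ligase. Cul5-204 had 184 labeled and 56.1 unlabeled, and the coding Cul5-202 had 65.7 and 179, so that the isoforms were on opposite sides of equality and differed by 3.16 on the log2 scale. The other coding transcripts of the gene, Cul5-201 and Cul5-209, were close to Cul5-202, with differences of -0.12 and -0.24. Cul5-204 is a fragment of 392 bases in 4 exons whose start is tagged as not found, whereas Cul5-202 has 5945 bases in 20 exons.

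Ppp4r3b encodes a regulatory subunit of protein phosphatase 4. Ppp4r3b-206 had 136 labeled and 68.6 unlabeled, and the coding Ppp4r3b-203 had 94.3 and 243, a difference of 2.35. Calm3 encodes calmodulin, the calcium sensor. Calm3-202 had 144 labeled and 111 unlabeled, and Calm3-203 had 74.3 and 258, a difference of 2.17. In both genes the other coding transcripts compared were also above the top one, by 0.38 to 0.84 in Ppp4r3b and by 1.23 in Calm3-201. The top coding transcripts are short here, Ppp4r3b-203 with 576 bases in 5 exons and Calm3-203 with 490 bases in 2 exons.

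Pml encodes the organizer of nuclear bodies that bear its name. Pml-209 had 120.0 labeled and 142 unlabeled, against 67.6 and 218 in Pml-203, a difference of 1.45. Pml-203 is also short, with 427 bases in 2 exons. Cpsf6, a subunit of the cleavage factor that helps choose polyadenylation sites, had 147 labeled and 107 unlabeled in Cpsf6-204, against 118 and 215 in Cpsf6-206, a difference of 1.32. In these 5 genes the labeled value of the NMD isoform was above that of the top coding isoform and the unlabeled value below it. The coding Pml-204 and Pml-211 were farther above the top one than Pml-209, at 1.93 and 1.63. The second NMD isoform of Pml, Pml-206, was higher still at 2.14. In Cpsf6 the coding Cpsf6-202 and Cpsf6-203 were somewhat less far above than Cpsf6-204, at 1.27 and 1.10. The remaining coding transcripts ran from 0.40 to 0.72 in Pml and from -0.15 to 0.52 in Cpsf6. Differences past 2-fold were thus found in coding isoforms of both genes too.

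Rbm39 encodes a splicing factor of the U2AF-related family. Rbm39-222 had 279.8 labeled and 167 unlabeled, and the main coding Rbm39-201 had 439 and 651, a difference of 1.31. It was 1 of 8 NMD isoforms of Rbm39 that could be compared, and their differences ran from -0.23 (Rbm39-212) to 1.50 (Rbm39-224). Rbm39-223 and Rbm39-225, with 413 and 415 labeled and 699 and 707 unlabeled, were at -0.19 and -0.20. The 6 other coding transcripts ran from -0.15 to 0.40. The NMD isoforms of this gene were thus split, and NMD isoforms together took 48.9% of its NMD plus coding exon value in the labeled and 48.2% in the unlabeled library.

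At the other end, Serf2, a small protein that modifies protein aggregation, had 374 labeled and 245 unlabeled in Serf2-205 and 191 and 39.0 in the coding Serf2-201, a difference of -1.68. Here both isoforms were higher in labeled RNA, and the coding isoform more so. Its second NMD isoform, Serf2-206, was at -1.75, while the other coding transcripts, Serf2-202 and Serf2-204, were at -0.058 and -0.97.

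Fubp3, a single-strand nucleic acid-binding protein of the FUBP family, had 27.0 labeled and 180.2 unlabeled in Fubp3-206 against 143 and 333 in Fubp3-202, a difference of -1.52. The other NMD isoform, Fubp3-210, was above the top coding transcript by 0.59, and the 6 other coding transcripts ran from -1.46 (Fubp3-203) to 1.36 (Fubp3-208). Psmd11, a subunit of the proteasome lid, had 29.3 labeled and 226 unlabeled in Psmd11-211 against 192 and 525 in Psmd11-205, a difference of -1.50. Its 7 NMD isoforms ran from -1.51 (Psmd11-206) to 0.34 (Psmd11-202), and its 5 other coding transcripts from -0.72 to 0.21.

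Atrx encodes a chromatin remodeler that helps deposit histone H3.3. Atrx-205 had 230.1 labeled and 1038 unlabeled, and Atrx-222 had 983 and 1585, a difference of -1.48. Its other members, Atrx-221 and Atrx-225, were at -0.70 and -0.98, so that all 3 were below. The 13 other coding transcripts of Atrx ran from -0.56 to 0.32.

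Ccnl1, a cyclin tied to splicing, had 94.3 labeled and 156 unlabeled in Ccnl1-207 against 173 and 105 in Ccnl1-201, a difference of -1.44. Of its 5 NMD isoforms, Ccnl1-208 was also low (-1.13), while Ccnl1-203, Ccnl1-205 and Ccnl1-214 were at -0.097, -0.18 and 0.023. Nmd3, which despite its name is the adaptor that exports the large ribosomal subunit, had 207 labeled and 363 unlabeled in Nmd3-204 against 126 and 83.6 in Nmd3-201, a difference of -1.40. Its other NMD isoform, Nmd3-203, was at -1.15 and its other coding transcript, Nmd3-205, at -1.18, so the top coding transcript was the one that stood apart in this gene.

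**Figure D3:**
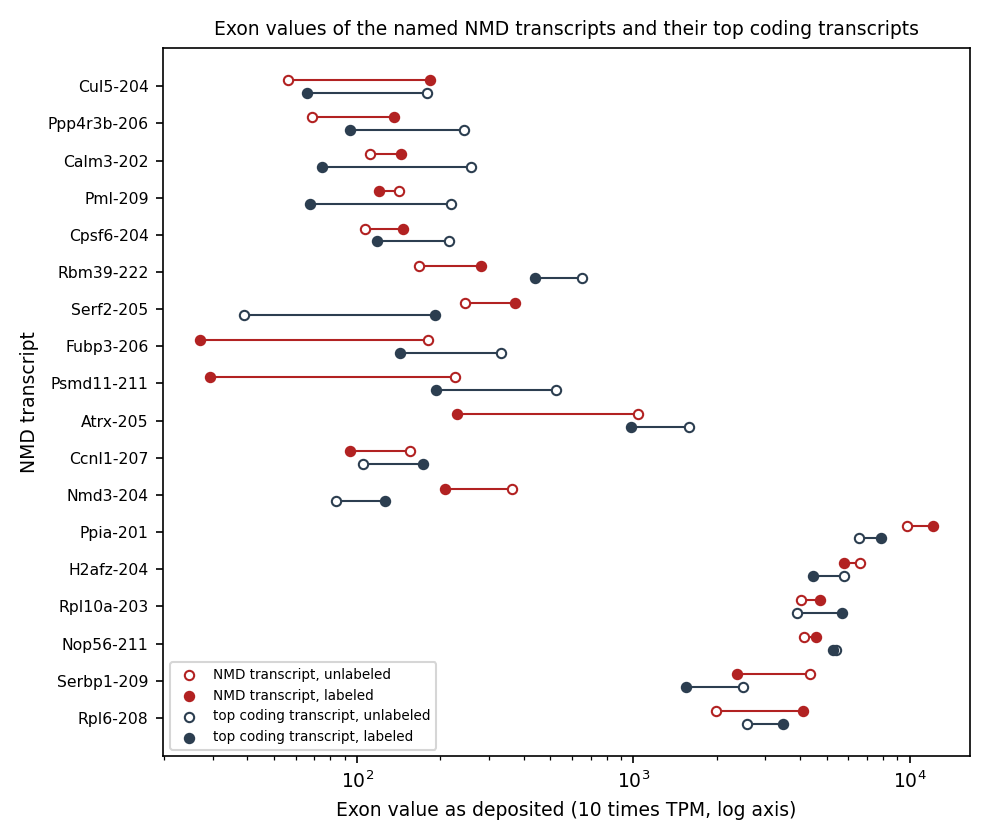
Exon values in the deposited unit (10 times TPM, log axis) of the 18 named NMD transcripts (red) and of the top coding transcript of each gene (dark), with open circles for the unlabeled and filled circles for the labeled library. In the 6 upper genes labeled over unlabeled is higher in the NMD transcript than in the coding one, in the next 6 it is lower, and in the 6 lowest rows, the most abundant, the 2 ratios differ by at most 0.61 on the log2 scale, in Rpl6.

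In the most abundant NMD isoforms the labeled to unlabeled ratio was near that of the coding isoform. Ppia encodes cyclophilin A, a prolyl isomerase. Ppia-201 had 12157 labeled and 9784 unlabeled, above the coding Ppia-202 with 7863 and 6570, and the difference was 0.05. H2afz, which encodes the histone variant H2A.Z, had 5787 and 6637 in H2afz-204 against 4464 and 5803 in H2afz-201, a difference of 0.18. Nop56, a core protein of box C/D small nucleolar ribonucleoproteins, had 4565 and 4137 in Nop56-211 against 5282 and 5423 in Nop56-201, also 0.18.

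Serbp1, an mRNA-binding protein found on idle ribosomes, had 2377 labeled and 4346 unlabeled in Serbp1-209 against 1547 and 2495 in Serbp1-203, a difference of -0.18. Rpl10a and Rpl6 encode proteins of the large ribosomal subunit. Rpl10a-203 had 4755 and 4051 against 5704 and 3918 in Rpl10a-201, a difference of -0.31. Rpl6-208 had 4106 and 1987 against 3465 and 2566 in Rpl6-201, a difference of 0.61 and the widest of these 6. Genes such as Ppia, H2afz, Rpl10a, Rpl6 and Rpl12 have near-identical copies elsewhere in the genome, so that their values also depend on how such reads were placed. H2afz-204, Nop56-211, Serbp1-209 and Rpl6-208 had no base outside the coding exons of their gene, Ppia-201 had 5 and Rpl10a-203 had 233. Apart from Rpl10a-203, a ratio near the partner's thus rests almost wholly on how shared reads were divided.

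Of 24 genes for NMD and exon junction complex factors, all were in the table, 4 had a member and 5 members of these 4 could be compared. Smg1, the kinase that phosphorylates UPF1, had 61.9 labeled and 153 unlabeled in Smg1-204 against 83.3 and 178 in Smg1-201, a difference of -0.21. Smg6, the endonuclease of the pathway, had 55.3 and 50.0 in Smg6-202 against 76.5 and 70.4 in Smg6-201, a difference of 0.03. Magohb, a core protein of the exon junction complex, had 59.3 and 50.3 in Magohb-202 against 37.9 and 35.1 in Magohb-201, a difference of 0.13.

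None of the 5 reached 2-fold, beside 6.35% above and 5.66% below over all members, and 5 are too few to show a departure from these shares. Smg5-202 and Magohb-203, named after their values were seen, were at 0.083 and 0.95. The factors of the pathway had values in both libraries. The top coding transcripts of the 24 genes had 5.03 to 428 labeled and 5.47 to 489 unlabeled. Their median log2 ratio was -0.41, against -0.48 over the top coding transcripts of 9339 genes. The 9339 are those with both values above 0 and a mean exon value above 10, a limit not set for the 24. Upf1, the central helicase, had 15.0 labeled and 54.1 unlabeled, the lowest ratio of the 24 (-1.85), and Sap18, an accessory protein of the exon junction complex, with 233 and 83.2, the highest (1.49).

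Splicing factors and other RNA-binding proteins, a group in which poison exons are well known, gave 95 pairs from 46 of 87 genes. Srsf, Hnrnp and Clk genes, set aside by the rule, gave none of these pairs. The median difference of the 95 was 0.072, with 6.32% at least 2-fold above and 3.16% at least 2-fold below, against 6.35% and 5.66% over all members. The most abundant were near their coding isoform. Dhx9, an RNA helicase, had 522 labeled and 2179 unlabeled in Dhx9-209 against 503 and 2204 in Dhx9-204, a difference of 0.07. Luc7l3, a protein related to U1 snRNP components, had 933 and 969 in Luc7l3-204 against 652 and 773 in Luc7l3-205, a difference of 0.19. Srrm1, a splicing coactivator, had 410.5 and 1563 in Srrm1-204 against 281 and 942 in Srrm1-201, a difference of -0.18, but the annotated stop of Srrm1-204 is not upstream of its last junction.

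The members of the list past 2-fold upward were Fubp1-203, Prpf31-203, Srrm1-209, Rbm39-222, Rbm39-224 and Ptbp3-203, of which those other than Rbm39-222 were named after their values were seen. Ptbp3, a paralog of the splicing repressor PTBP1, had 75.1 labeled and 95.4 unlabeled in Ptbp3-203 against 72.9 and 342 in Ptbp3-207, a difference of 1.89. Prpf31, a protein of the U4/U6 snRNP, had 80.0 and 38.1 in Prpf31-203 against 62.6 and 69.4 in Prpf31-201, a difference of 1.22. Downward they were Fubp3-206, Ccnl1-207 and Ccnl1-208.

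Among 81 genes of cytosolic ribosomal proteins, 11 had a member and all 11 members could be compared. Their median difference was 0.13, none reached 2-fold, and they ran from -0.42 to 0.61. Rpl12-201 had 3930 labeled and 1172 unlabeled against 2706 and 664 in Rpl12-203, a difference of -0.28 in which both isoforms were well above equality. In 24 pairs from 14 of 66 genes of translation factors and tRNA synthetases the median was -0.098 and none reached 2-fold. Levels were high, with a median mean exon value of 765 in the ribosomal list and 291 in this one. Among all members with a mean above 300, only 1.97% were at least 2-fold above and 1.97% at least 2-fold below. With so few pairs, none past 2-fold thus sets neither list apart. Eef1b2, the exchange factor of elongation factor 1A, had 2498 and 1239 in Eef1b2-201 against 3197 and 1556 in Eef1b2-209, a difference of -0.03, and its 5 NMD isoforms ran from -0.23 to 0.09.

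Eif4a1 and Eif4a2 encode the helicases of the cap-binding complex. Eif4a2-210 had 1404 labeled and 1159.8 unlabeled against 1533 and 945 in Eif4a2-202, a difference of -0.42. Eif4a1-201 had 785 and 1582 against 1571 and 2469 in Eif4a1-213, a difference of -0.36. Both are short of 2-fold. In Eif4a2 the 3 NMD isoforms ran from -0.48 to -0.14 and the 4 other coding transcripts from -1.09 to -0.15, so that both kinds were below the same top transcript.

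Chromatin and transcription regulators gave 39 pairs from 19 of 86 genes with a median of 0.094. Tet1, the dioxygenase that oxidizes 5-methylcytosine and is abundant in embryonic stem cells, had 263 labeled and 1585 unlabeled in Tet1-204 against 633 and 1688 in Tet1-206, a difference of -1.18. The coding Tet1-203 was at -1.16 and Tet1-205 at -0.63, so that 1 coding isoform of the gene was about as far from the top one as the NMD isoform. Suz12, a core subunit of Polycomb repressive complex 2, had 371 and 1189 in Suz12-202 against 468 and 1467 in Suz12-206, a difference of -0.03. The other members of the list past 2-fold, named after their values were seen, were Baz1a-203 (2.68) and Smarcb1-206 (1.91) above and Kdm2a-211 (-1.49) below.

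Mitochondrial genes gave 15 pairs from 14 of 73 genes with a median of 0.087. Atp5a1, the alpha subunit of ATP synthase, had 911 labeled and 742 unlabeled in Atp5a1-204 against 666 and 677 in Atp5a1-201, a difference of 0.32. Timm23, the channel of the inner membrane translocase, had 423 and 373 in Timm23-202 against 678 and 493 in Timm23-206, a difference of -0.28. Cox4i1, a subunit of cytochrome c oxidase, had 414 and 182 in Cox4i1-207 against 684 and 251 in Cox4i1-201, a difference of -0.26. Ndufs1-209, of a complex I subunit, was the only member of this list past 2-fold (1.21) and was named after its value was seen.

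Cell cycle and DNA repair genes gave 36 pairs from 22 of 84 genes with a median of 0.016. Ccna2, cyclin A2, had 392 labeled and 821 unlabeled in Ccna2-203 against 341 and 731 in Ccna2-205, a difference of 0.04. Brca1, a ubiquitin ligase of homologous recombination, had 464 and 743 in Brca1-203 against 204 and 341 in Brca1-201, a difference of 0.06. The NMD isoform had the higher values, but only 76 of its 1917 bases lie outside coding exons, so these rest largely on the division of reads. Rad50, of the complex that senses DNA breaks, had 328 and 676 in Rad50-204 against 250.0 and 539 in Rad50-201, also 0.06. Past 2-fold, and named after their values were seen, were Msh3-214 (2.86), Msh3-209 (2.44) and Ercc8-206 (1.85) above and Fancd2-205 (-1.42) below. Over the 7 lists the medians ran from -0.098 to 0.13, beside 0.0066 over all members.

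By the way in which the isoform departs from the top coding transcript, median differences were 0.019 for an added exon (n = 728), 0.025 for an exon added and another skipped (n = 168), 0.014 for a skipped exon (n = 703), -0.0093 for a shifted splice site (n = 738) and 0.041 for a covered intron (n = 97). Members that differed at their ends or in another way had a median of 0.0020 and the widest quartiles, -0.48 and 0.46 (n = 322). Where the stop was inside an added exon, the median was 0.031, with 7.56% at least 2-fold above and 3.95% at least 2-fold below (n = 582). Some of these exons belong to other coding transcripts of the gene, as in Calm3-202, Pml-209 and Nop56-211. The class is thus not one of poison exons alone. The median was -0.0025 where the stop was in sequence of coding exons (n = 1641) and 0.030 where it was in other sequence outside them (n = 432). Members that shared the stop of the top coding transcript had the highest median of these classes, 0.13, and 62 of 100 were above 0.

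The distance from the stop to the last junction showed no steady trend. Medians were 0.12 for up to 55 bases (n = 61), -0.021 for over 55 to 100 bases (n = 282), 0.052 for over 100 to 200 bases (n = 481), -0.029 for over 200 to 500 bases (n = 908), 0.020 for over 500 to 1000 bases (n = 499) and 0.029 beyond (n = 524). By stop codon they were 0.0096 for TGA, -0.0085 for TAA and 0.028 for TAG. All these medians lie well inside the quartiles of the members as a whole.

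Members with much of their sequence in introns of the top coding transcript stood apart. Such sequence can be exon in other coding transcripts of the gene, as in Calm3-202 and Pml-209. In 135 members of 120 genes, more than 40% of the bases lay in introns of the top coding transcript, and their median difference was 0.36 (quartiles -0.13 and 1.18). Of these, 41 (30.4%) were at least 2-fold above and 6 (4.44%) at least 2-fold below, which is near the 27.3% and 4.47% of the retained-intron transcripts. The 2621 members with 40% or less had a median of 0.0013, with 5.11% above and 5.72% below. This division was made after the values were seen. It was narrower among abundant members: 33 with a mean exon value of at least 100 had a median of 0.14, with 15.2% at least 2-fold above. The part that intron reads of unspliced RNA have in this difference was not tested.

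**Figure D4:**
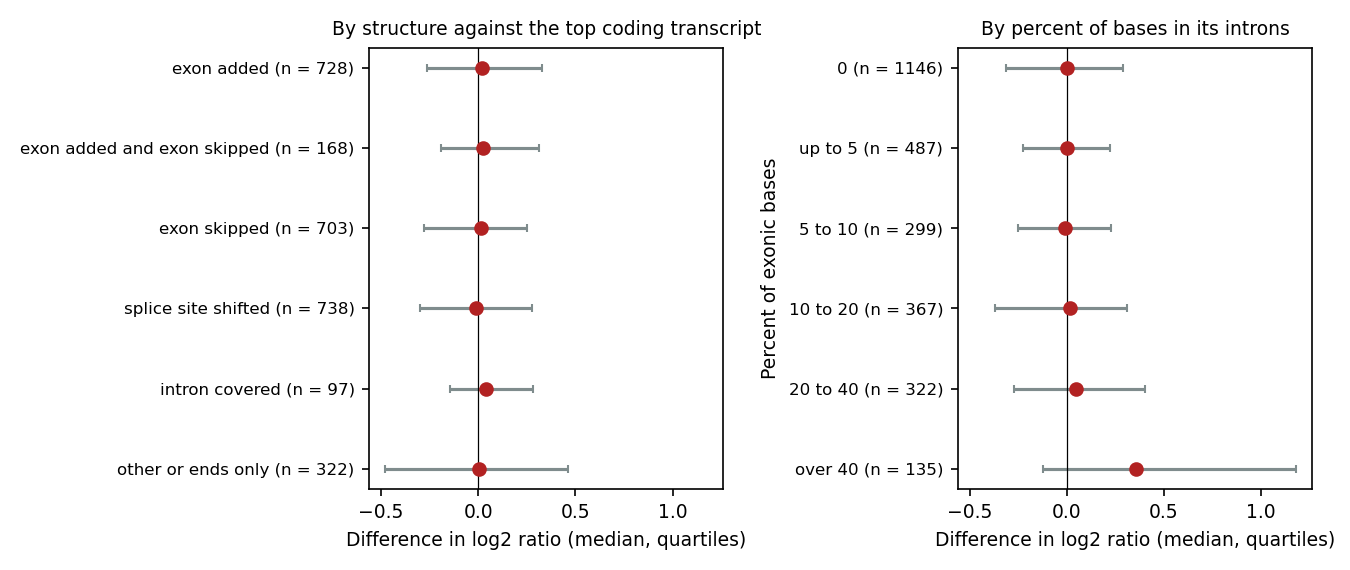
Median (point) and quartiles (bars) of the difference in log2(labeled / unlabeled exon value) between NMD and top coding transcript, by how the NMD transcript differs in structure (left) and by the percent of its exonic bases that lie in introns of the top coding transcript (right). All medians lie near 0 except that of the 135 transcripts with more than 40% of such bases, at 0.36.

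The spread did not follow the level of support for the annotation step by step. In 895 members of transcript support level 1, the best supported, the median difference was 0.033, with 4.36% at least 2-fold above and 2.23% below. In 1096 members of level 5, the least supported, it was -0.011, with 6.75% and 7.48% (quartiles -0.33 and 0.31). Level 3 was wider than level 5, with quartiles of -0.52 and 0.41 (n = 553), and level 2 had the largest share above, 9.91% (n = 212). Members whose start is tagged as not found (n = 841) had a median of -0.028 and the others (n = 1915) 0.013.

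Length and base composition, which bear on how much 4sU a transcript can take up, were weakly related to the difference. Across 1763 genes with 1 member each, the difference correlated with the log2 ratio of the lengths at r = 0.0744 and rho = 0.106, and with the difference in uridine content at r = 0.0942 and rho = 0.119. These points share both libraries and the division of reads within genes. The 135 members with over 40% of bases in introns of the top coding transcript had a median uridine difference of 0.32 percentage points. In each bin with fewer such bases this median was negative. The part of base composition in the difference was not tested.

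Intron values gave a second view of the same pairs. In 2704 pairs all intron values were above 0. The labeled intron to exon ratio had a median of 0.514 in the members (quartiles 0.295 and 0.873) and 0.363 in the top coding transcripts (quartiles 0.202 and 0.614), and it was higher in the member in 1903 pairs (70.4%). In the unlabeled library the medians were 0.0968 and 0.0645, and the member was higher in 1859 pairs (68.8%). The median log2 difference was 0.39 in both libraries.

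That difference was in the exons. Within pairs the intron values differed by a median of 0.0082 labeled and 0.011 unlabeled on the log2 scale, while the exon values of the members were lower by 0.36 and 0.39. Isoforms of a gene share introns, and the top coding transcript was chosen for its high exon value, so the direction of this difference follows in part from the choice. The other coding transcripts of the same genes, set against the top one in the same way, differed by 0.51 labeled and 0.58 unlabeled (n = 4194). A labeled intron to exon ratio of at least 1 was found in 556 members (20.6%) and in the partner of 211 (7.80%).

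The share of NMD isoforms in the NMD plus coding exon value of a gene was much the same in labeled and unlabeled RNA. Per gene, the NMD share is the sum of NMD exon values over the sum of NMD and coding exon values. A gene was counted when the latter sum was above 10 in each library and its NMD sum had a mean above 10. Genes with little NMD RNA were thus left out, so the shares do not stand for all genes with an NMD isoform. Retained-intron and other transcript types are in neither sum, so the share is not that of a gene's whole output. The NMD share also rests on how reads from shared exons were divided. Over 1886 genes its median was 31.7% in the labeled library (quartiles 20.1% and 46.8%) and 32.7% in the unlabeled (quartiles 20.5% and 46.5%). Labeled minus unlabeled had a median of -0.39 percentage points (quartiles -3.54 and 2.68), which was 0.29 when only NMD transcripts with at least 100 bases outside coding exons were counted, and the share was higher in labeled RNA in 861 genes (45.7%) and lower in 1025. It was at least 10 points higher in 100 genes and at least 10 points lower in 119. NMD isoforms held over 50% in 368 genes in the labeled and in 381 in the unlabeled library.

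Single genes departed from this. In Cul5 the NMD share was 51.0% labeled and 9.71% unlabeled, in Calm3 49.3% and 23.2%, and in Ppp4r3b 25.9% and 8.31%. It was lower in labeled RNA in Serf2 (57.4% and 78.4%), Nmd3 (66.6% and 80.6%) and Tet1 (12.1% and 21.1%). Among the most abundant genes it hardly moved in Ppia (60.7% and 59.8%) and Nop56 (34.5% and 35.4%) and was higher in labeled RNA in Rpl6 (54.2% and 43.6%).

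**Figure D5:**
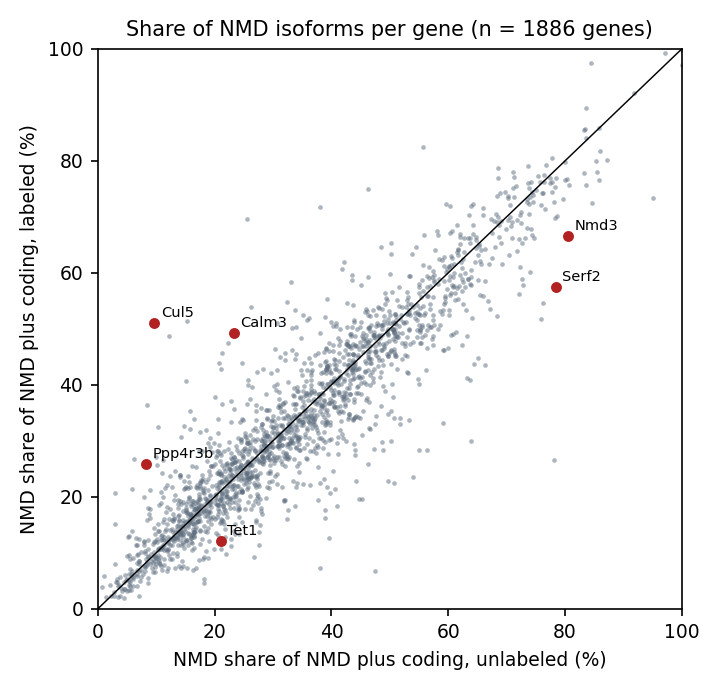
NMD share of the NMD plus coding exon value of each of 1886 genes in the labeled library (y axis, percent) against the unlabeled library (x axis, percent), with the line of equality. Most genes lie along the line, and Cul5, Calm3 and Ppp4r3b lie above it and Serf2, Nmd3 and Tet1 below it.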

How the data were processed

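Labeled and unlabeled RNA of 1 biological replicate was analysed; other replicates were not analysed here. Per the submitters' processing notes, reads were aligned with STAR 2.5.0 to GRCm38 and quantified with RSEM. The authors deposited an exon and an intron abundance for each transcript, called TPM, with no counts. Since each column sums to 10 times a TPM total, the deposited values were handled as a score of relative abundance on that scale, and depth and counting error are unknown. Transcript types, structures, stop codons and sequences were taken from GENCODE M21, which held 90.9% of the 121429 transcripts; the study used another Ensembl release.

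The difference was log2(labeled / unlabeled) of the NMD minus that of the top coding transcript, for values above 0 and a mean above 10, with no pseudocount. With 1 library per pool, counts, medians and quartiles were used as a description. The members and lists were chosen with earlier results of these data known. Named were, 1 per gene, the 6 highest and 6 lowest differences with means of at least 100, the 6 highest means, and the 3 highest means of each of 7 lists; 1 gene so named is not reported here. Classification and differences were tested on simulated data, which did not include the division of shared reads among isoforms. Alternatives are given at the end. Python 3.11.15, numpy 2.4.6 and pandas 2.3.3 were used.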

Additional observations from a re-analysis of the deposited data

How the results depend on the processing

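Each setting was changed alone, and a value was taken as moved when it left the 95% interval of the main one, Wilson's for a share and the binomial interval of order statistics for a median. These intervals run over transcripts, which are not replicates. The median difference of members from the top coding transcript lay between -0.063 and 0.061 throughout, the share at least 2-fold above between 2.25% and 10.3%, and the share at least 2-fold below between 2.23% and 10.1%.

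A minimum mean of 1 gave 9.85% above and 7.99% below, a minimum of 100 gave 2.25% for each, a minimum of 10 in each library gave 5.35% and 4.23%, and 1 member per gene gave 4.88% and 4.82%. Subtracting leakage of 0.169 times the unlabeled value gave 10.3% and 10.1%, and 0.11 for the other coding transcripts. Support level 1 gave a median of 0.033, 4.36% above, 2.23% below, -0.014 against the other coding transcripts and -0.14 points for the NMD share.

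The choice of the coding partner decided the sign. Chosen by the unlabeled value it gave a median of 0.047, 7.78% above, 4.44% below, 0.16 for the other coding transcripts and -0.058 against them. Chosen by the labeled value it gave -0.063, 5.13%, 8.08%, -0.084 for the other coding transcripts, which reverses their direction, and -0.00034 against them. By construction, a partner picked for a high value in 1 library tends to a ratio tilted to that library.

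Chosen after the data were seen were members with at least 100 bases outside coding exons, with a median of 0.061, 8.83% above, 4.70% below, and, reversed, 0.047 against the other coding transcripts and 0.29 points for the NMD share, and APPRIS principal transcripts as partners, with -0.018, 5.00% above, 0.0050 for the other coding transcripts and -0.015 against them. In the main comparison 1391 of 2756 partners (50.5%) were APPRIS principal. The cause was not tested.

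No paired analysis was possible because each pool has 1 library and the pools share only 1 replicate number, and leaving out a library leaves no ratio. Depth is unknown, and 43.6% of the members compared had no base outside coding exons, so that their values rest on the division of reads.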

Other observations

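Among the 135 members with more than 40% of their bases in introns of the top coding transcript, the 4 highest differences are given here, chosen after the values were seen. Npepps encodes a cytosolic aminopeptidase. Npepps-207, with 76.9% of its bases in introns of the coding Npepps-201, had 121 labeled and 11.8 unlabeled against 96.1 and 273, a difference of 4.86. Baz1a encodes a subunit of a chromatin remodeler. Baz1a-203, with 64.4% of such bases, had 44.5 and 18.3 against 80.3 and 212, a difference of 2.68. The gene 2210016L21Rik had 63.1 and 8.06 in 2210016L21Rik-202 against 24.3 and 19.2 in its top coding transcript, a difference of 2.63, with 60.8% of such bases. Rps6ka6, a kinase of the ribosomal S6 kinase family, had 20.8 and 15.6 in Rps6ka6-205 against 101 and 429 in Rps6ka6-203, a difference of 2.50, with 52.3% of such bases. The labeled value was above the unlabeled value in all 4 NMD isoforms, and among the 4 coding isoforms only in that of 2210016L21Rik. The members with the largest share of such bases were not the highest: Kmt2e-205, Agtpbp1-215 and Kat2b-206, at 100%, had differences of 0.30, 0.081 and -0.56.

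A pair of members had a mean exon value above 10 but a value of 0 in the labeled library, and were therefore not compared. Rab2b, a small GTPase of the secretory pathway, had 0 labeled and 36.7 unlabeled in Rab2b-205, while its top coding transcript had 42.3 and 43.3. Plxna1, a semaphorin receptor, had 0 and 27.6 in Plxna1-205, while its top coding transcript had 20.6 and 52.4. Without counts, a listed 0 gives no upper limit.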
